A study of Mus musculus with 6 samples.

Results

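This report concerns 29 mouse genes of cholesterol and fatty acid synthesis, read in 6 lines of mpkCCD cells. The genes were chosen by name from textbook pathway membership, with earlier results of these data known. They fall into 18 genes of sterol synthesis, 5 regulators and sterol transporters, and 6 genes of fatty acid synthesis. Of the 29 genes, 28 had a probe set on the array, of 18193 genes in all, and all 28 passed the filter on low signal, which kept 10342 genes. Acat2, the cytosolic acetoacetyl-CoA thiolase, was not analysed here. Where a gene had several probe sets, the brightest on average was used.

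The mpkCCD line is an immortalised line of mouse kidney cells of the cortical collecting duct, whose principal cells take up water through the channel aquaporin 2 (AQP2). Cells of the mpkCCDc14 line were grown into colonies that differ in AQP2. The study profiled clones 2, 3, 9, 10 and 11 and the original cells in order to find transcripts that follow Aqp2 between clones. Clone 2 is labelled as not expressing AQP2, and the other 5 lines as expressing it. All 6 lines were kept for 5 days with 0.1 nM of dDAVP, an analog of vasopressin that acts on the receptor driving Aqp2 transcription in these cells, and no untreated line was analysed here. Each line is a single array. The spread given below is therefore the spread between the 5 expressing lines (n = 5), and clone 2 has no replicate of its own: a difference between it and the others is a difference of this clone, and the lack of AQP2 and any other property of the clone cannot be told apart.

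Mammalian cells make cholesterol from acetyl-CoA through mevalonate, farnesyl diphosphate, squalene and lanosterol. The transcription factor SREBP-2, encoded by Srebf2, drives nearly all enzymes of this route when sterols in the endoplasmic reticulum are low, and SREBP-1, encoded by Srebf1, drives fatty acid synthesis more strongly. SCAP escorts both precursors to the Golgi for cleavage, and INSIG1 holds SCAP back when sterols are plentiful. In the fatty acid branch, ATP-citrate lyase, acetyl-CoA carboxylase and fatty acid synthase make palmitate, ELOVL6 lengthens it to stearate, and the stearoyl-CoA desaturases make oleate and palmitoleate.

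The Aqp2 signals matched the labels, with 159.3 for clone 2, 1697.9 for clone 3, 4683.4 for clone 9, 1066.4 for clone 10, 6577.7 for clone 11 and 3822.4 for the original cells. Clone 2 was the lowest of the 6 lines, and among the expressing lines Aqp2 spanned 6.17-fold. Signals are MAS5 units, a linear scale of hybridised brightness. The median signal per array ran from 79.6 in clone 2 to 88.6 in clone 10. Principal cell markers, a list that includes Aqp2, summed to 5668.9 in clone 2 and to between 12648.8 and 16888.1 in the expressing lines. Of these, 8 of 9 passed the filter. Aqp2, Scnn1a, Scnn1g, Fxyd4 and Gata3 were lower in clone 2 than in every expressing line. Aqp3 was higher in clone 2 (191.9) than in every expressing line (96.36 to 150.0), and Avpr2, Scnn1b and Aqp4 lay inside the expressing range. The 4 epithelial markers (Krt8, Krt18, Cdh1 and Epcam) all passed the filter. They summed to 66293 in clone 2 and to between 76736 and 86738 in the expressing lines. Each of these 4 was lower in clone 2 than in every expressing line, and none was called (limma adjusted p from 0.0998 to 0.42). Clone 2 was the lowest line for 26.9% of all genes past the filter. The lists for other cells were low: 1 of 5 intercalated cell genes (Atp6v1b1) and 1 of 4 proximal tubule genes (Lrp2) passed the filter, and 0 of 5 fibroblast, 0 of 3 adipocyte, 0 of 3 hepatocyte and 0 of 2 leukocyte genes with a probe set did. The summed signal of the intercalated cell list was 1069.1 in clone 2 against 512.1 to 788.7 in the expressing lines. That of the proximal tubule list was 247.6 against 901.4 to 1182.4. Atp6v1b1 alone read 949.3 in clone 2 against 413.0 to 687.3, and Lrp2 alone 115.6 against 808.7 to 1067.2. The other genes of both lists were below the filter, so the sums do not describe the lists as wholes. The part of these cell markers in the results below was not tested.

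The promoter sequences of 4 genes are shown because these genes carry the results or the best-known control site: Elovl6, which was lowest in clone 2, Nsdhl and Ebp, which lie on the X chromosome, and Hmgcs1, whose window held the sterol regulatory element searched for. Each is the stretch of 250 bases before the transcription start, 5′ to 3′ on the gene's own strand, from RefSeq on GRCm38.p6. Capitals mark TCACNCCAC, a form of the sterol regulatory element bound by the SREBP proteins, and CCAAT, the box bound by NF-Y, which works beside SREBP at many sterol genes. Both strands were searched, so CCAAT on the opposite strand reads ATTGG, and no match of one motif overlapped a match of the other in the windows shown. The windows are chr3:129532136-129532385 on the plus strand for Elovl6, chrX:72918271-72918520 on the plus strand for Nsdhl, chrX:8193513-8193762 on the minus strand for Ebp, and chr13:119690101-119690350 on the plus strand for Hmgcs1.
Elovl6: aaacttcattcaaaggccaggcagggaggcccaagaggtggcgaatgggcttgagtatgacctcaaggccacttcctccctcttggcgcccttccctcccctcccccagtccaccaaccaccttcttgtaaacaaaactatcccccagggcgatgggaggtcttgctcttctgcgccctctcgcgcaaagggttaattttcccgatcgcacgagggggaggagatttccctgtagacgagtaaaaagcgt
Nsdhl: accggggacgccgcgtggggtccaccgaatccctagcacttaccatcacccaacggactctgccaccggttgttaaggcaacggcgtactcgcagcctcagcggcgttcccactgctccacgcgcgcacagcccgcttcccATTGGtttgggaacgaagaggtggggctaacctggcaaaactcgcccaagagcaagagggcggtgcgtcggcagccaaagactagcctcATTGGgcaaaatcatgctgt
Ebp: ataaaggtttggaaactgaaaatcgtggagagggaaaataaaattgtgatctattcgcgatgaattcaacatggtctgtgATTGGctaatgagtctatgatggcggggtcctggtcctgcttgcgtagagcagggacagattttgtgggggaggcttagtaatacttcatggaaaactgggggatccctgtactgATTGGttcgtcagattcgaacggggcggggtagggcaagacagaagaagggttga
Hmgcs1: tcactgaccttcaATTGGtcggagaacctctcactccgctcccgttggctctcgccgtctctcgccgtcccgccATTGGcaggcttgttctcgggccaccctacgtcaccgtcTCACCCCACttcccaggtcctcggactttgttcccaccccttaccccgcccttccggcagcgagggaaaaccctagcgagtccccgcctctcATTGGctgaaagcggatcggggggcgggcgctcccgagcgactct
The Hmgcs1 window held TCACNCCAC 137 bases before the start and CCAAT on the opposite strand at 237, 176 and 45 bases. Nsdhl held CCAAT on the opposite strand at 109 and 20 bases and Ebp at 170 and 55 bases, while the Elovl6 window held neither motif.

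Windows were matched for 23 of the 29 genes, and several starts gave 29 windows in all. Fdps, Fdft1, Sqle, Stard4, Scd1 and Scd2 were not matched. CCAAT occurred in 18 of the 23 genes (78.3%) against 37.5% of the 27025 genes in the table, and in 19 of the 29 windows (65.5%) against 33.8% of 32851. TCACNCCAC occurred in 1 of the 29 windows (3.45%) against 1.05% of all windows. A match describes the letters and is not evidence of binding, and no match says only that these letters are not in the window.

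Most genes of the pathway were not called between clone 2 and the expressing lines. Elovl6 and Scd1, which lengthen and desaturate fatty acids, were lower in clone 2, and Nsdhl, a late enzyme of sterol synthesis, was higher. These were the genes called in the comparison of clone 2 with the 5 expressing lines by limma with Benjamini-Hochberg adjustment at an adjusted p under 0.05: 1 of 28 higher and 2 of 28 lower, with 25 not called. In such bulk RNA, fewer cells of a kind and less RNA per cell cannot be told apart. Over all 22518 probe sets tested, 0.817% were called higher (184) and 1.67% lower (376). Of the 10342 genes past the filter, read from 1 probe set each, 133 were called higher and 192 lower. With the arrays centred on their medians the split over all probe sets was 254 higher and 232 lower, and for the 28 genes it was 1 and 1. At an unadjusted p under 0.05 the count was 9 of 28 (32.1%), against 22.3% of all genes past the filter. The difference was positive for 18 of 28 (64.3%) against 51.5% of all genes, with a median of 0.177 on the log2 scale against 0.013.

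**Figure D1:**
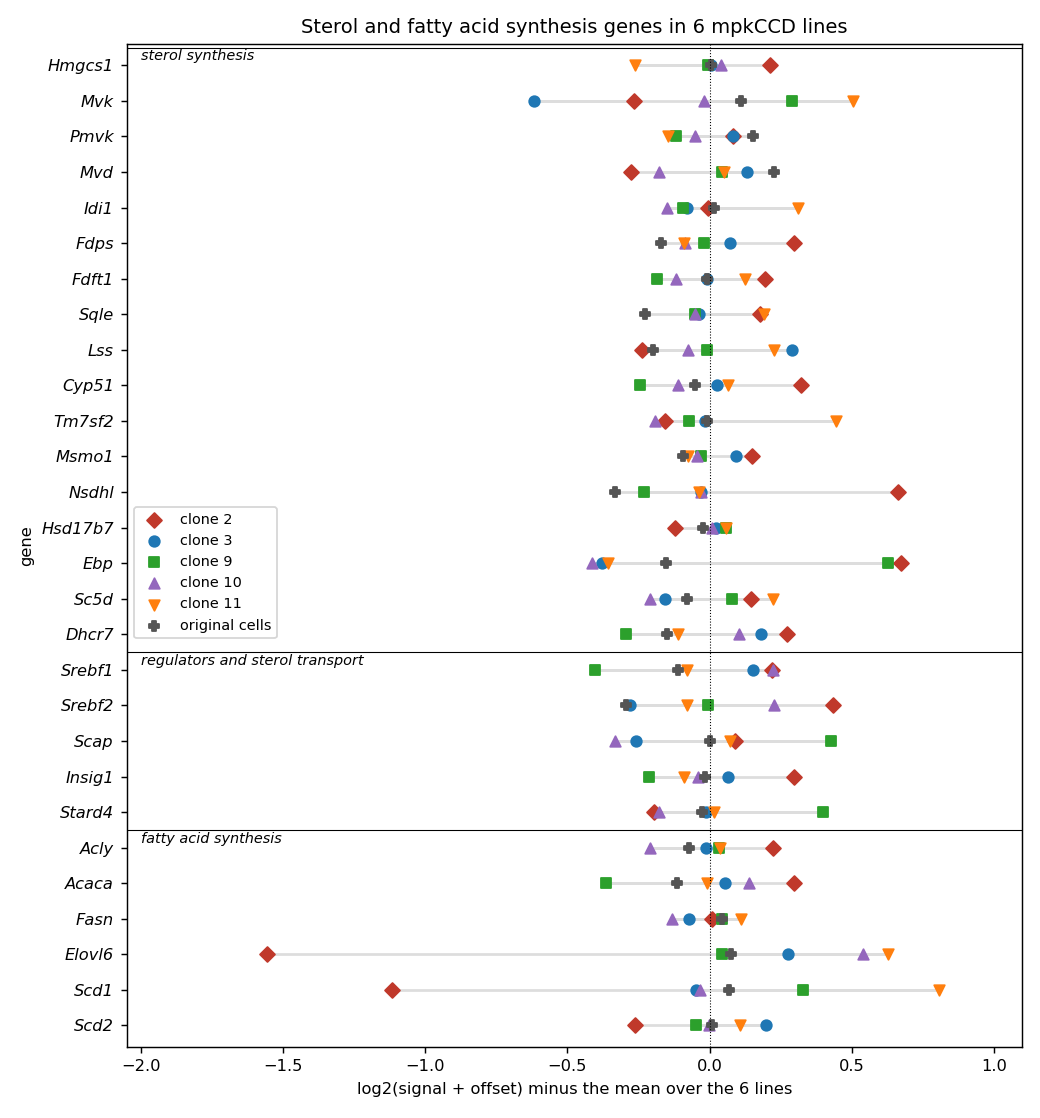
The log2 signal of each of the 28 genes in each of the 6 lines, as the deviation from that gene's mean over the lines, with genes grouped by role and lines by colour and shape. Most deviations lie close to 0, and the Elovl6 and Scd1 points of clone 2 stand far to the left.

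Elovl6, the elongase that turns palmitate into stearate, had the largest difference of the 28 genes. The signal read 1388.3 for clone 2, against 4994.6 for clone 3, 4258.1 for clone 9, 5997.1 for clone 10, 6377.5 for clone 11 and 4344.4 for the original cells. All 5 expressing lines lay well above clone 2, and they lay within 1.5-fold of each other. The expressing mean was 5194 ± 960 (SD, n = 5), 3.74-fold the level of clone 2. The log2 difference, clone 2 minus the expressing mean, was -1.87 (SE 0.223, limma adjusted p = 0.00757). The call was kept in every alternative run, with adjusted p from 0.00408 to 0.0296. The gene lies at chr3:129532386-129638495 (GRCm38.p6).

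Both other Elovl6 probe sets showed the same pattern. The brighter of them read 538.9 in clone 2 and 2052.1, 1885.8, 2426.6, 2918.3 and 1982.1 in clones 3, 9, 10, 11 and the original cells (log2 difference -2.01, limma adjusted p = 0.00648). The dimmer read 221.3 in clone 2 and between 627.9 and 787.7 in the expressing lines (log2 difference -1.68, limma adjusted p = 0.00646). Thus all 3 probe sets placed clone 2 below every expressing line. The 4 other genes within 1 Mb of Elovl6 had clone 2 differences between -0.32 and 0.31 with a median of -0.06, and none was called.

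Scd1, the stearoyl-CoA desaturase that makes monounsaturated fatty acids, was the other gene called lower. The signal read 1080.3 for clone 2, 2286.8 for clone 3, 2977.3 for clone 9, 2309.0 for clone 10, 4152.0 for clone 11 and 2481.6 for the original cells. Clone 2 was again below all expressing lines, and clone 11 stood above the other 4. The expressing mean was 2841 ± 784 (SD, n = 5), 2.63-fold the level of clone 2. The log2 difference was -1.34 (SE 0.29, limma adjusted p = 0.0498), just inside the threshold. The call was lost without clone 3 (adjusted p = 0.0606), without clone 10 (0.0586) and without the original cells (0.0945). It was also lost with the offset doubled, no filter, no mean-variance trend, quantile normalization or median centring (0.0679), and the range over all alternatives was 0.0314 to 0.105. The gene lies at chr19:44394450-44407709, and its other probe set read 190.4 in clone 2 and between 331.5 and 375.3 in the expressing lines (log2 difference -0.79, limma adjusted p = 0.0672).

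Genes near Scd1 leaned the same way. Of the 19 genes within 1 Mb, 17 had a negative clone 2 difference, with a median of -0.31, and 1 was called lower (Twnk). The median over all 378 genes of chromosome 19 was -0.235. The part of this regional lean in the Scd1 difference was not tested.

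Scd2, the second desaturase gene and a neighbour of Scd1 on chromosome 19, read 20555.2 in clone 2 and 28310.5, 23832.6, 24636.2, 26548.2 and 24788.4 in clones 3, 9, 10, 11 and the original cells. Clone 2 was the lowest line, by a small margin. The log2 difference was -0.31 and was not called (limma adjusted p = 0.161, unadjusted p = 0.019). Elovl6, Scd1 and Scd2 were the fatty acid genes for which clone 2 lay below every expressing line.

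**Figure D2:**
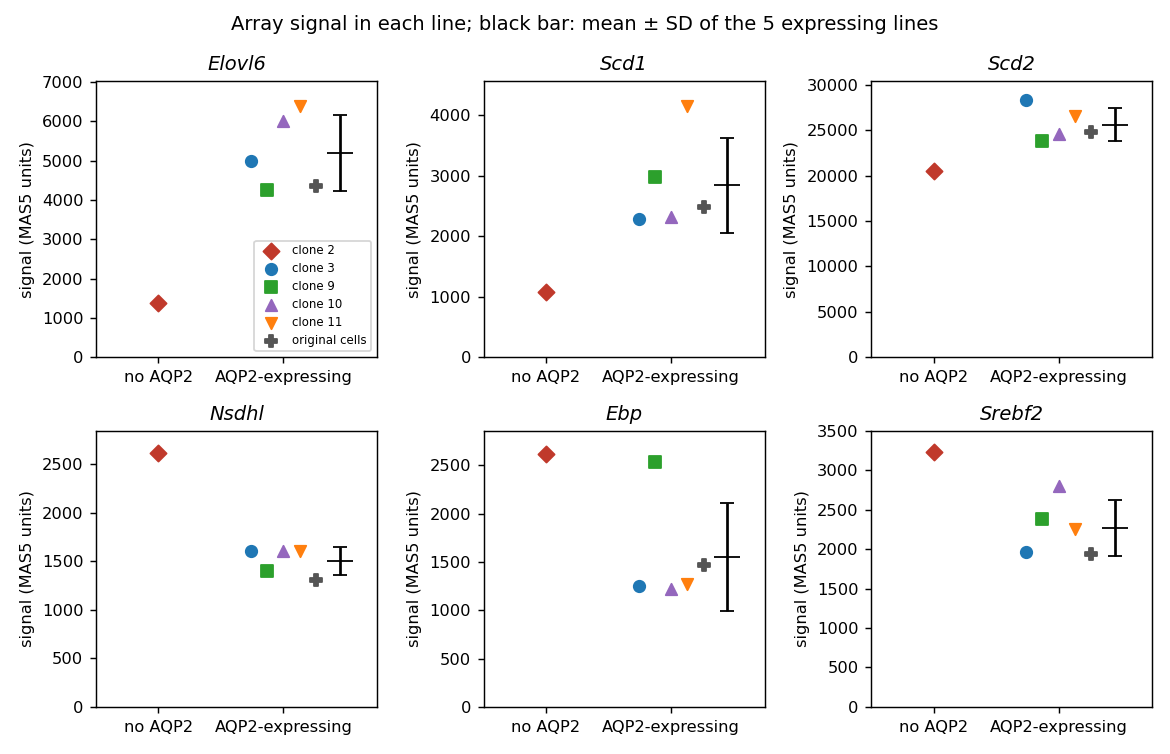
Array signal in MAS5 units on a linear axis from 0 for 6 genes, with clone 2 on the left of each panel and the 5 expressing lines on the right. The black bar is the mean and SD of the expressing lines; clone 2 lies below all of them for Elovl6, Scd1 and Scd2 and above all of them for Nsdhl, Ebp and Srebf2.

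The 3 genes that build palmitate did not follow Elovl6 and Scd1. Acly, which makes cytosolic acetyl-CoA from citrate, read 7092.1 in clone 2 and 5905 ± 404 (SD, n = 5) in the expressing lines, which ran from 5261.1 to 6233.0. Acaca, the carboxylase that commits acetyl-CoA to fatty acids, read 1080.0 in clone 2 and from 676.3 to 964.8 in the others. For both genes clone 2 was the highest line, and neither was called (log2 differences 0.27 and 0.36, limma adjusted p = 0.289 and 0.368). Fasn, fatty acid synthase, read 3861.3 in clone 2, inside the expressing range of 3504.7 to 4148.6, with a log2 difference of 0.01 (limma adjusted p = 0.98). Over the 6 fatty acid genes the difference was positive for 3 and negative for 3, with a median of -0.153.

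Nsdhl, which removes a methyl group at the fourth carbon of the sterol ring, was the sterol synthesis gene called in clone 2. The signal read 2618.4 for clone 2, 1609.9 for clone 3, 1401.2 for clone 9, 1610.4 for clone 10, 1602.5 for clone 11 and 1304.5 for the original cells. Clone 2 lay above all 5 expressing lines, whose values were close together at 1506 ± 144 (SD, n = 5). Clone 2 was 1.74-fold the expressing mean, or 0.80 higher on the log2 scale (SE 0.168, limma adjusted p = 0.0468). The call was lost when clone 3, 10, 11 or the original cells were left out (adjusted p = 0.0694, 0.0655, 0.0764 and 0.0863). It was also lost with no filter, quantile normalization or no mean-variance trend, and the range over all alternatives was 0.0346 to 0.0952.

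Nsdhl lies at chrX:72918521-72958528, on a chromosome where most genes read higher in clone 2. The 297 genes of the X chromosome had a median clone 2 difference of 0.466, and 87.2% of them were positive. Of the 15 genes within 1 Mb of Nsdhl, 13 were positive, with a median of 0.46, and 4 were called higher (Zfp275, Zfp185, Cetn2 and Bcap31). The part of the chromosome-wide difference in the Nsdhl value was not tested.

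Ebp, the sterol isomerase also known as the emopamil binding protein, is the other X-linked gene of the 28, at chrX:8185329-8193512. It read 2615.7 for clone 2, 1251.0 for clone 3, 2534.1 for clone 9, 1222.9 for clone 10, 1272.3 for clone 11 and 1466.5 for the original cells. Clone 2 and clone 9 were high and close to each other, and the other 4 lines were low. Clone 2 against the expressing mean of 1549 ± 559 (SD, n = 5) differed by 0.81 on the log2 scale (SE 0.346, limma adjusted p = 0.235). Without clone 9 the log2 difference was 0.998 and was called (limma adjusted p = 0.015).

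Clone 9 against the other 4 expressing lines, with clone 2 not in the fit, gave the single call of this kind among the 28 genes. There Ebp differed by 0.95 on the log2 scale (SE 0.155, limma adjusted p = 0.0403), where 0.0711% of probe sets and 11 of 10342 genes were called higher. The call was lost without clone 3 (adjusted p = 0.0916) and without clone 10 (0.0991), and with no filter or no mean-variance trend, and the range over alternatives was 0.0294 to 0.145. Of the 24 genes within 1 Mb of Ebp, 23 were higher in clone 9 (median 0.57), 2 of them called (Hdac6 and Plp2), and 22 were higher in clone 2 (median 0.49), none called. The median over the X chromosome in clone 9 was 0.159. Nsdhl, on the same chromosome, was not high in clone 9 (1401.2).

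None of the early enzymes of sterol synthesis was called in clone 2. Hmgcs1, the cytosolic HMG-CoA synthase, read 13431.5 for clone 2, 11622.8 for clone 3, 11547.2 for clone 9, 11904.9 for clone 10, 9662.1 for clone 11 and 11625.4 for the original cells. Clone 2 was the highest line and clone 11 the lowest, with the other 4 close together (log2 difference of clone 2 0.26, limma adjusted p = 0.309). The order differed between Hmgcs1 probe sets. The next brightest had the same highest and lowest lines (12370.5 and 9756.2). In another bright one clone 3 was highest (10624.9, against 10316.5 for clone 2) and clone 9 lowest (8286.1). Mvk, mevalonate kinase, ranged from 227.5 for clone 3 to 517.0 for clone 11, with clone 2 inside that range at 295.7. In its other probe set clone 3 was instead the highest line (302.8). Pmvk, phosphomevalonate kinase, read 1014.3 in clone 2 and 950 ± 87.6 (SD, n = 5) in the expressing lines. Mvd, the decarboxylase that ends the mevalonate steps, was lower in clone 2 (405.7) than in every expressing line (435.6 to 582.1), but was not called (log2 difference -0.33, limma adjusted p = 0.387).

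Idi1, the isomerase that makes dimethylallyl diphosphate, read 3267.2 in clone 2 and from 2952.6 to 4070.3 in the expressing lines, with clone 11 the highest. Fdps, farnesyl diphosphate synthase, read 10759.3 in clone 2 and 9216.8, 8642.7, 8258.6, 8228.7 and 7777.6 in clones 3, 9, 10, 11 and the original cells. Every expressing line was below clone 2. The log2 difference of 0.35 (SE 0.12) was not called (limma adjusted p = 0.15, unadjusted p = 0.0159). Fdft1, squalene synthase, read 4142.8 in clone 2 and from 3179.8 to 3950.5 in the expressing lines, so clone 2 was again highest without a call (limma adjusted p = 0.405). Sqle, the squalene epoxidase that opens the sterol-specific part, read 3651.1 in clone 2, inside the expressing range of 2754.8 to 3691.7.

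Lanosterol synthesis and the later steps gave no call in clone 2 other than Nsdhl. Lss, which makes lanosterol by closing the sterol rings, read 829.7 in clone 2 against 852.4 to 1204.0 in the expressing lines, so clone 2 was lowest (log2 difference -0.28, limma adjusted p = 0.484). Cyp51, the lanosterol demethylase, read 3227.8 in clone 2 against 2175.5 to 2696.5, so clone 2 was highest (log2 difference 0.38, limma adjusted p = 0.203). Msmo1, the methylsterol oxidase that acts just before NSDHL, read 5073.1 in clone 2 against 4286.0 to 4879.5. Dhcr7, which makes the last double-bond reduction of one branch, read 725.4 in clone 2 against 483.1 to 678.6. These values of Msmo1 and Dhcr7 placed clone 2 above every expressing line by small margins (limma adjusted p = 0.451 and 0.426).

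Tm7sf2, a sterol reductase, lay inside the expressing range in clone 2 (385.7) and was highest in clone 11 (594.9). Sc5d, the lathosterol oxidase, read 1935.6 in clone 2 and from 1511.7 to 2044.7 in the others. Hsd17b7, the ketosteroid reductase of the demethylation complex, varied least: the expressing lines read 554.8 to 588.0 and clone 2 read 517.0, below all of them, with no call (log2 difference -0.15, limma adjusted p = 0.659). The small spread of Hsd17b7 is that of the probe set used. In a dimmer Hsd17b7 probe set clone 11 read 309.0, against 198.9 to 225.8 in the other lines. Of the 17 sterol synthesis genes measured, 11 had a positive clone 2 difference, with a median of 0.180, and 1 was called.

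The regulators were not called in clone 2. Srebf2 read 3238.8 for clone 2, 1964.2 for clone 3, 2383.0 for clone 9, 2798.8 for clone 10, 2258.1 for clone 11 and 1945.0 for the original cells. Clone 2 was the highest line and clone 10 the next. The log2 difference was 0.52 (SE 0.201, limma adjusted p = 0.192), and the expressing mean was 2270 ± 351 (SD, n = 5). In the other Srebf2 probe set clone 2 was also highest (2507.8), with a smaller log2 difference of 0.21. Srebf1 read 3248.6 for clone 2, next to 3257.5 for clone 10 and 3099.0 for clone 3, with clone 9 lowest at 2105.3. Insig1 read 2312.4 in clone 2 against 1620.0 to 1964.6 in the expressing lines (log2 difference 0.36, limma adjusted p = 0.229).

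Scap, the escort protein, read 1544.0 in clone 2, inside the expressing range of 1145.7 to 1956.3, with clone 9 the highest. Stard4, a carrier that moves cholesterol between membranes, read 2002.5 for clone 2, 2273.1 for clone 3, 3033.0 for clone 9, 2025.3 for clone 10, 2317.5 for clone 11 and 2252.6 for the original cells. Clone 2 and clone 10 were the lowest lines and clone 9 was high (log2 difference of clone 2 -0.23, limma adjusted p = 0.549). Of the 5 regulators and transporters, 4 had a positive clone 2 difference, with a median of 0.263. Transcript levels of Srebf1, Srebf2 and Scap do not measure cleavage of the SREBP proteins, which is where sterols act on them.

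**Figure D3:**
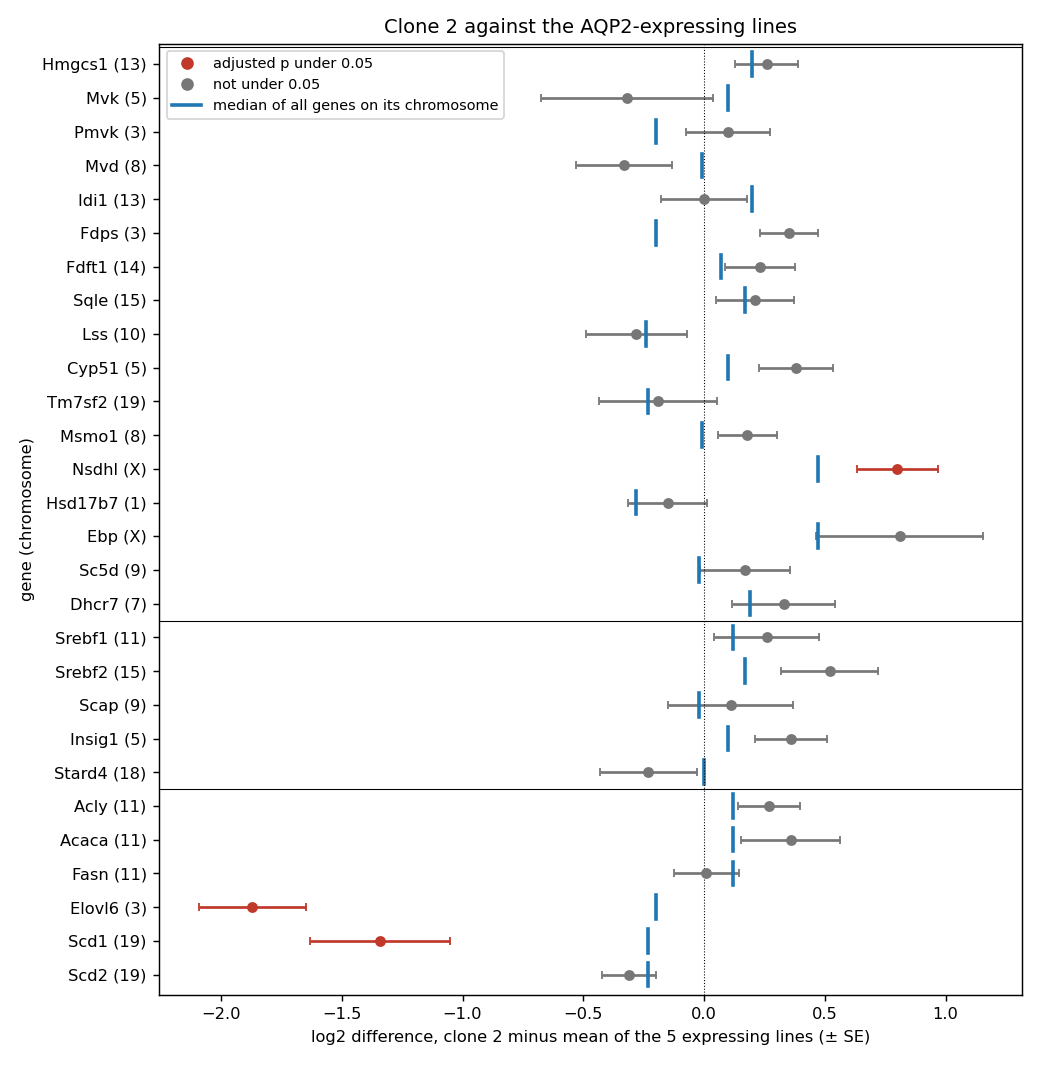
The log2 difference of clone 2 from the mean of the 5 expressing lines for each of the 28 genes, with bars for ± 1 SE, red for adjusted p under 0.05, and a blue tick at the median of all genes on the same chromosome. Elovl6 lies at -1.87, far from its chromosome's tick at -0.197, while Nsdhl at 0.80 lies on the same side of 0 as the X chromosome's tick at 0.466.

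Clone 2 lay above all 5 expressing lines for 12 of the 28 genes (42.9%) and below all of them for 7 (25%). Over all probe sets tested these shares were 24.3% and 29.3%. In sterol synthesis the counts were 8 above, 3 below and 6 inside the expressing range, among regulators and transporters 2, 1 and 2, and in fatty acid synthesis 2, 3 and 1. The sign of the clone 2 difference was that of the gene's chromosome median for 20 of the 28 genes and the opposite for 8. Genes share the sign of their chromosome's median more often than not by construction. For example, 18.6% of genes on chromosome 1 and 87.2% on the X chromosome were positive. The share over all genes was not computed, so these counts are not read as particular to the 28 genes.

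The signal of several genes could be read from more than 1 probe set. The 28 genes had 64 probe sets, of which 54 passed the filter, and 16 genes had several past it. The other probe sets agreed in sign of the clone 2 difference in 22 of 26 cases, and for 12 of the 16 genes all did. Mvk, Idi1, Lss and Sc5d had a probe set of the opposite sign, and none of these genes was called.

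The study's own question was which transcripts follow Aqp2 between clones. In a limma fit of each probe set on log2 Aqp2 over the 6 lines, Scd1 was the gene of the 28 that was called, rising by 0.317 in log2 per doubling of Aqp2 (SE 0.0425, adjusted p = 0.02). Over 22517 probe sets, 1.02% were called rising and 0.742% falling, and 0 of the 28 genes were called falling. Of 10341 genes read from 1 probe set each, 126 were called rising and 104 falling. At an unadjusted p under 0.05 the count was 10 of 28 (35.7%), against 22.1% of all genes past the filter. Elovl6 had a slope of 0.334 (SE 0.0859, limma adjusted p = 0.0798) and Nsdhl had a slope of -0.161 (SE 0.0408, limma adjusted p = 0.0766), neither called.

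The slopes were smaller without clone 2, most so for Elovl6 and Nsdhl. Without clone 2, the Scd1 slope was 0.275 and no longer called (limma adjusted p = 0.293), the Elovl6 slope was -0.043 (0.897), of the opposite sign, and the Nsdhl slope was -0.055 (0.805). The Scd1 call was also lost without clone 11 (adjusted p = 0.0713), the line with the highest Aqp2, and without the mean-variance trend (0.0704). Without clone 10 the Elovl6 slope was 0.375 and was called (limma adjusted p = 0.0215). Among the expressing lines Elovl6 was high in clone 10, which had the lowest Aqp2 of the 5, as well as in clone 11, which had the highest. Scd1 was highest in clone 11 and lowest in clones 3 and 10, the lines with the lowest Aqp2 of the 5. These fits share the clone 2 array with the comparison above and are not independent of it.

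**Figure D4:**
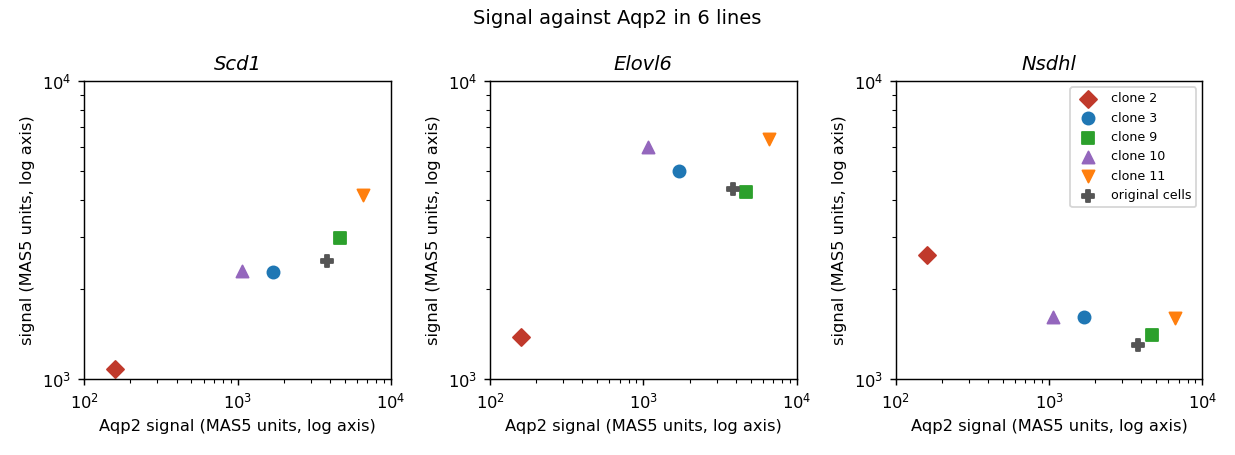
Signals of Scd1, Elovl6 and Nsdhl against the Aqp2 signal in the 6 lines, both axes logarithmic in MAS5 units, each point a line. Clone 2 at an Aqp2 signal of 159.3 is the lowest point for Scd1 and Elovl6 and the highest for Nsdhl, and the other 5 lines show no common slope for Elovl6.

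Between the expressing lines the genes ranged about as much as other genes. The median range over the 5 expressing lines was 0.43 on the log2 scale for the 28 genes and 0.46 for all genes past the filter, and over all 6 lines 0.52 and 0.58. Elovl6 spanned 2.18 over the 6 lines but 0.58 over the 5 expressing lines, and Scd1 spanned 1.92 and 0.86. At the other end Hsd17b7 spanned 0.18 over the 6 lines in the probe set used, and Fasn and Msmo1 0.24 each. In clone 9 Ebp was called against the other 4 expressing lines by limma. In clones 3, 10 and 11 and the original cells none of the 28 genes was called. Over all 22518 probe sets at most 1 was called in each of clones 3, 10 and 11 and the original cells, so this absence is not particular to these genes. At an unadjusted p under 0.05 the counts were 1 (3.57%) in clone 3 against 2.52% of all genes, 1 (3.57%) in clone 10 against 3.90%, and 4 (14.3%) in clone 11 against 4.73%. They were 0 in the original cells against 1.48%, and 5 (17.9%) in clone 9 against 14.9%, a share near the background of that line.

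Clone 9 and clone 11 departed from the others in different genes. In clone 9, Srebf1 (log2 difference -0.45) and Acaca (-0.38) were the lowest of the expressing lines and Scap (0.56) and Stard4 (0.45) the highest, none called (limma adjusted p = 0.308, 0.385, 0.278 and 0.235). The medians of all genes on chromosomes 9 and 18 in clone 9, where Scap and Stard4 lie, were 0.211 and 0.365. In clone 11 the 6 fatty acid genes all had positive differences, from 0.06 to 0.73, the largest being Scd1 (limma adjusted p = 0.9). Mvk in clone 3 (log2 difference -0.84, limma adjusted p = 0.999) and Srebf2 in clone 10 (0.39, limma adjusted p = 0.986) were the single genes with an unadjusted p under 0.05 in those lines. The other Mvk probe set went the other way, with clone 3 the highest line (302.8, against 172.5 to 254.2 in the others).

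No line held the whole pathway high or low. The median deviation of the 28 genes from their own 6-line means was 0.148 for clone 2, -0.001 for clone 3, -0.014 for clone 9, -0.053 for clone 10, 0.055 for clone 11 and -0.025 for the original cells. Clone 2 was the highest line for 12 genes (42.9%, against 29% of all genes) and the lowest for 7 (25%, against 26.9%). Clone 11 was the highest for 8 (28.6%, against 16.3%), and clone 10 the lowest for 7 (25%, against 15.6%). The median correlation over the 378 pairs of these genes across the 6 lines was 0.068, against 0.001 over all genes, and 52.6% of pairs were above 0. It was 0.157 within sterol synthesis, -0.121 within the regulators and transporters and -0.095 within fatty acid synthesis. Over the 5 expressing lines alone these medians were 0.144 for all 378 pairs (59.0% above 0, against 50.1% of all gene pairs), 0.130, -0.262 and 0.280, so the sign for fatty acid synthesis turned without clone 2. These are descriptions over 6 arrays that share a scaling and, in each pair, the single clone 2 array.

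Some pairs moved closely together, given here as a description of 6 points with a limit chosen after the values were seen. A correlation above 0.9 was found in 9 of 378 pairs (2.38%), against 1.43% of all gene pairs, and below -0.9 in 5 (1.32%, against 1.38%). Over the 5 expressing lines the counts were 9 (2.38%, against 2.53%) and 10 (2.65%, against 2.45%), so the share above 0.9 did not exceed that of all gene pairs. Srebf1 ran with Acaca and with Dhcr7 (r = 0.95 for each), and Acaca with Dhcr7 (0.93), with clone 9 lowest for all 3 genes. Fdft1 ran with Cyp51 (0.95), Fdps with Msmo1 (0.96) and Idi1 with Tm7sf2 (0.93). The other pairs above the limit were Cyp51 with Insig1 (0.91), Hsd17b7 with Scd1 (0.93) and Fdps with Nsdhl (0.90), which were 0.69, 0.71 and 0.51 over the expressing lines. Below -0.9 lay Hmgcs1 with Scd1 (-0.94), Mvd with Srebf2 (-0.98), Hsd17b7 with Insig1 (-0.91, and -0.63 over the expressing lines), and Stard4 with Srebf1 (-0.92) and with Acaca (-0.93). Elovl6 and Scd1, the pair lower in clone 2, had r = 0.88 over the 6 lines and 0.38 over the 5 expressing lines. Each r uses 1 probe set per gene, and other probe sets can order the lines differently. For Tm7sf2 and the Idi1 probe set used, clone 11 was highest and clone 10 lowest. The other Idi1 probe set read 1531.2 in clone 10 and 1414.7 in clone 11. The other Srebf2 probe set ran only from 2112.0 to 2207.9 over the expressing lines, against 1945.0 to 2798.8 in the one used.

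Neighbouring parts of lipid metabolism were read from 4 further lists. In fatty acid supply and desaturation, 12 of 13 genes with a probe set passed the filter, and 1 was called in clone 2, higher. This was Acsl4, the acyl-CoA synthetase that prefers arachidonate, which read 3477.6 for clone 2, 1621.3 for clone 3, 1394.5 for clone 9, 1510.3 for clone 10, 921.6 for clone 11 and 1372.1 for the original cells. Clone 2 lay above all expressing lines and clone 11 below the rest. The log2 difference was 1.36 (SE 0.264, limma adjusted p = 0.0375), and the slope on Aqp2 was -0.307 (limma adjusted p = 0.0255), so Acsl4 was also called falling with Aqp2. The clone 2 call was lost without clone 10 (adjusted p = 0.0513) and without the original cells (0.0854). The slope call was lost without clone 2 (adjusted p = 0.391), without clone 11 (0.083) and without the original cells (0.0519). Both calls were also lost with no filter and with no mean-variance trend. Acsl4 lies on the X chromosome, at chrX:142317993-142390802.

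The other lists held no call in clone 2 or on the slope. In sterol regulation and uptake 4 of 5 genes with a probe set passed the filter, and the 2 with the highest signal were Mbtps1, the first protease that cleaves SREBP precursors (1877.9 in clone 2 and 2530 ± 94.7 in the expressing lines, SD, n = 5), and Mbtps2, the second of these proteases, encoded on the X chromosome (1636.7 in clone 2 and 1349 ± 361 in the expressing lines). In the isoprenoid branch 7 of 7 passed, with Fnta, a subunit of the farnesyl and geranylgeranyl transferases, at 5222.9 and 5500 ± 493, and Nus1, a subunit of the dolichol-making prenyltransferase, at 2033.1 and 2531 ± 283. In sterol storage and efflux 4 of 6 passed, with Npc2, which carries cholesterol out of the lysosome, at 15927 and 10496 ± 1467, and Scarb1, a lipoprotein receptor, at 1319.7 and 1025 ± 74.8. Their limma adjusted p-values lay between 0.11 for Npc2 and 0.828 for Fnta.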

How the data were processed

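RNA from 6 mpkCCD lines was hybridised to Affymetrix mouse arrays, 1 array per line. The deposited signal intensities are linear; the submitters' processing notes name MAS5 and Affymetrix Expression Console, version 1.1. MAS5 scales each array by a common factor and is noisy at low signal. The number of arrays limits the precision, and nothing in the labels says that lines are repeats of each other, so p-values measure only the spread between lines.

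Of 45101 probe sets, 64 controls were left out. Of the other 45037, 34945 had 1 gene, 932 several and 9160 none in the platform's annotation, and 34741 of the first had a current ID in the GRCm38.p6 gene table. Values were taken as log2(signal + 18.81), the 25th percentile, which shrinks the changes of low genes. The filter kept the 22518 probe sets whose mean signal was above the median of 85.46. Differences were tested two-sided with limma 3.58.1 in R 4.3.3 (lmFit, eBayes with trend), adjusted by Benjamini-Hochberg over all probe sets, after the scripts were tested on simulated data.

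The text names all 29 genes, Aqp2, and of each further list the called genes or, with no call, the 2 of highest mean signal. Other genes named, near Elovl6, Scd1, Nsdhl and Ebp, were chosen after their values were seen, being the called ones within 1 Mb. The genes and lists were chosen with earlier results of these data known. The alternatives concerned the offset, the filter, the scaling, eBayes, the probe set and leaving out lines.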

Additional observations from a re-analysis of the deposited data

Results flagged for a closer look

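Among the 5 expressing lines, 3 of the 28 genes tested had a line standing apart by more than Dixon's critical value. For normally distributed values that limit flags about 1 in 20 groups. The share flagged over all genes was not computed, so the count is not read as particular to these genes. The gaps below were taken on the log2 values used in the fits, while the signals beside them are linear. For Ebp, clone 9 (2534.1) lay above the other 4 lines (1222.9 to 1466.5), with a gap of 0.751 of the range. For Hmgcs1, clone 11 (9662.1) lay below the other 4 (11547.2 to 11904.9), with a gap of 0.854 of the range. The other Hmgcs1 probe sets did not all place clone 11 lowest. The brightest of them did (9756.2, against 10346.4 for clone 9). The next had clone 9 lowest (8286.1, against 8740.8 for clone 11), as did the one after it (2789.6 against 2809.2). For Tm7sf2, clone 11 (594.9) lay above the other 4 (376.5 to 429.5), with a gap of 0.714 of the range.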

How the results depend on the processing

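Recomputing the 28 clone 2 differences under each alternative gave 389 values, of which 367 kept direction and side of the threshold, 15 lost a call, 1 gained a call and 6 changed sign. The sign changed for Idi1 (0.087 with median centring, 0.148 with the mean over probe sets, -0.042 to 0.073 leaving out a line) and Fasn (-0.038 with quantile normalization, -0.024 to 0.037 leaving out a line), both near 0. The count of genes higher in clone 2 was 0 with no filter, with quantile normalization and with no mean-variance trend, and 0 to 2 leaving out a line. The count lower was 1 with the offset doubled, no filter, quantile normalization, median centring or no trend, and 1 to 2 leaving out a line; Elovl6 was called in all of these, so the call lost was Scd1. The count rising with Aqp2 was 0 with no trend, 0 to 2 leaving out an expressing line, and 0 without clone 2, where the Elovl6 slope turned to -0.043. The count higher in clone 9 was 0 with no filter or no trend and 0 to 1 leaving out a line.

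With median centring the median clone 2 difference was 0.272 for sterol synthesis, 0.355 for regulators and transporters and -0.061 for fatty acid synthesis (-0.063 with quantile normalization), and the median deviation in clone 2 was 0.224. Leaving out a line, the regulators' median ran from 0.220 to 0.330. Over all probe sets the clone 2 calls were 184 higher and 376 lower, against 76 and 134 with no filter, 69 and 150 with no trend, and 45 and 109 without the original cells, and 325 and 618 without clone 9. The slope calls were 230 rising and 167 falling, against 30 and 21 with no filter, 0 and 1 with no trend, 0 and 0 without clone 11 and 3 and 0 without clone 2; with median centring the split was 158 and 185. The clone 9 calls were 16 higher and 113 lower, against 1 and 37 with no filter. The cause of these shifts was not tested. No paired analysis was possible because the labels give no replicate numbers and each line has 1 array. Where leaving out a line took a call, fewer arrays were in the fit.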
